A study of Mus musculus with 6 samples.

Results

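The 10 genes Eln, Fbln2, Fbln5, Fbn1, Efemp1, Ltbp3, Ltbp4, Emilin1, Lox and Loxl2 encode components of elastic fibres, fibulins and the enzymes that cross-link them. They were chosen by name, with earlier results of these data known, so they are not an independent set. They are 10 of the 55401 genes listed in a table of read counts from sorted kidney endothelial cells (ECs, CD31-positive and CD45-negative cells). The table holds 3 libraries labelled CTRL (Cre -/-; Rbpjf/f) and 3 labelled RbpjΔEC (Cre +/-; Rbpjf/f), each from a different male mouse of 21 weeks. Both groups carried the floxed Rbpj alleles and received tamoxifen, 5 times 1.5 mg at 8 weeks of age, and kidneys were taken 12 weeks later, so that the age in the labels is above the sum of these times. CTRL mice were Cre-negative littermates, so they differ from RbpjΔEC mice in carrying no Cre. The Cre (CreERT2) is driven by the Cdh5 promoter, which is on in ECs, and acts once tamoxifen is given. It removes part of Rbpj, the gene of the DNA-binding factor through which Notch receptors act, in cells in which that promoter is on. The comparison asks which of these matrix genes differ in ECs after loss of endothelial Rbpj.

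Elastic fibres give arteries their recoil. Elastin, secreted as soluble tropoelastin, is deposited on a scaffold of fibrillin microfibrils with the help of fibulins and of latent TGF-beta binding proteins (LTBPs), and lysyl oxidases then cross-link it into an insoluble polymer. In the artery wall smooth muscle cells are the main source of elastin, and ECs rest on the internal elastic lamina and contribute matrix proteins of their own.

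Of the 10 genes, 3 fell in the libraries labelled RbpjΔEC. Fbn1, the fibrillin of the microfibril scaffold, fell by 43.1%, Fbln5, a fibulin that binds tropoelastin, fell by 39.3%, and Fbln2, a fibulin of vessel walls and basement membranes, fell by 30.8%. No member rose. The elastin gene itself and the cross-linking enzyme Lox had lower values in all 3 RbpjΔEC libraries than in any CTRL library but did not pass the test, and Emilin1, Ltbp3, Ltbp4, Loxl2 and Efemp1 overlapped between the groups. All 10 passed the filter on low counts. The test was edgeR's quasi-likelihood test, 3 libraries against 3, with Benjamini-Hochberg adjustment over 18438 genes and a threshold of 0.05. In that test 0.559% of all tested genes were called lower and 0.575% higher. The members' count higher was 0 at an unadjusted p under 0.05 as well, against 8.88% of all tested genes. DESeq2's Wald test called 3 members lower and 0 higher, against 0.84% and 0.684% of the 38324 genes it fitted. At an unadjusted p under 0.05, 5 members were lower (Fbn1, Fbln5, Fbln2, Eln and Lox), against 8.62% of all tested genes. The groups did not overlap for these 5 members, all lower in RbpjΔEC, and for 0 members that were higher, against 11.6% of all tested genes that were lower without overlap and 11.4% that were higher. The median log2 fold change was -0.44 over the members and 0.01 over all tested genes. An exact permutation test of 3 against 3 cannot give a p under 0.1 for a single gene.

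Levels are given in CPM, the deposited counts scaled to the library's total and its TMM factor. Total counts per library ran from 39649171 to 47726850, and a count of 3 corresponded to between 0.0633 and 0.0748 CPM. In CTRL 1 33764 genes had a count, more than in any of the other 5 libraries (25629 to 26785). Rbpj had 28.1, 29.7 and 29.8 CPM in CTRL and 28.8, 26.1 and 29.6 CPM in RbpjΔEC (log2 fold change -0.05, adjusted p = 0.793). These counts cover the whole gene and not the removed part alone, so they do not check the labels. Summed over 14 pan-endothelial markers, levels were 27294 to 30111 CPM in CTRL and 24935 to 25111 CPM in RbpjΔEC, and none of the 14 genes passed edgeR's test (at an unadjusted p under 0.05, 5 were lower and 1 was higher, and DESeq2 called 4 lower). The 3 highest of them, Kdr, Ptprb and Flt1, had 5987, 5252 and 4708 CPM in CTRL and 4956, 4415 and 3985 CPM in RbpjΔEC. Over all genes 103 fell and 106 rose, and with library totals alone as the scaling the split was 82 and 159.

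Promoter sequence bears on a comparison in which a DNA-binding factor was removed, so the letters TGGGAA, the core of the RBPJ binding motif, were searched on both strands (TTCCCA on the other). RefSeq promoter windows on GRCm38.p6, each with 250 bases before and 50 after a start site, covered 7 members with 10 windows. The core was in 3 of these windows, 1 each of Fbn1, Fbln5 and Ltbp3, and in 25.6% of all 32851 windows. It was in no window of Fbln2, Emilin1, Efemp1 or Ltbp4. The sequences with a match are shown because Fbn1 and Fbln5 fell while Ltbp3 did not change past the test. Each is written 5′ to 3′ on the gene's strand, with the core in capitals. For Fbn1 the 30 bases around the core are given, chr2:125506440-125506469 on the minus strand, because all 250 bases before this start site lie in annotated exons of GENCODE. For Fbln5 and Ltbp3 the 250 bases upstream are given, chr12:101819120-101819369 on the minus strand and chr19:5740650-5740899 on the plus strand.
Fbn1: tacttgaagaggTGGGAAaggagggggccg
Fbln5: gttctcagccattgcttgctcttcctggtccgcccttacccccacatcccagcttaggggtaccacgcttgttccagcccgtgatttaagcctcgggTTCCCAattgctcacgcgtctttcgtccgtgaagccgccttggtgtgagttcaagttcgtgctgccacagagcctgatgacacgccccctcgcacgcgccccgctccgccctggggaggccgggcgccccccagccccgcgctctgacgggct
Ltbp3: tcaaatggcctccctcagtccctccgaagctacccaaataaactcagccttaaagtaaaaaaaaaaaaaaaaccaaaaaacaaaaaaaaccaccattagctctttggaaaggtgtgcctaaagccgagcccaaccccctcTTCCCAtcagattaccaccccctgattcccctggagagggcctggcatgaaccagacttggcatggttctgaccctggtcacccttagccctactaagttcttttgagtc
Counted from the RefSeq start site, with bases upstream negative, the core began at -19 in Fbn1, -153 in Fbln5 and -110 in Ltbp3. A match of these letters is a description of the sequence and says nothing of binding.

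Fbn1 encodes fibrillin-1, the main structural protein of microfibrils (ENSMUSG00000027204.13, GRCm38 chromosome 2, 125300594 to 125507993, minus strand). It had 34.2, 43.4 and 44.6 CPM in CTRL 1 to 3, against 24.2, 21.1 and 24.2 CPM in the RbpjΔEC libraries. Every RbpjΔEC library was below every CTRL library. The means were 40.7 ± 5.67 and 23.2 ± 1.77 CPM (SD, n = 3 each), a log2 difference of -0.81 with a standard error of 0.111 (adjusted p = 0.00860). Fbn1 ranked 20 of 18438 tested genes by p. The call was lost without CTRL 3 (adjusted p = 0.0563) or without RbpjΔEC 1 (0.0580), and the log2 fold change lay between -0.93 and -0.75 over the 6 fits with 1 library left out. A gene on the opposite strand, Gm9913, overlaps 20.1% of the exonic bases of Fbn1, and the strand setting of the counting is not given in the sources used here. Gm9913 itself had between 1 and 12 counts per library.

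Eln encodes tropoelastin, the subunit of the elastic core (ENSMUSG00000029675.12, chromosome 5, 134702593 to 134747323, minus strand). It had 47.8, 58.8 and 52.2 CPM in CTRL and 44.8, 38.9 and 41.4 CPM in RbpjΔEC. The groups lay close together and did not overlap, with means of 52.9 ± 5.55 and 41.7 ± 2.96 CPM. The log2 fold change was -0.34, with a 95% interval from -0.55 to -0.14 and an adjusted p of 0.0922. Without the filter on low counts the adjusted p was 0.00920, the only setting tried in which Eln passed.

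**Figure D1:**
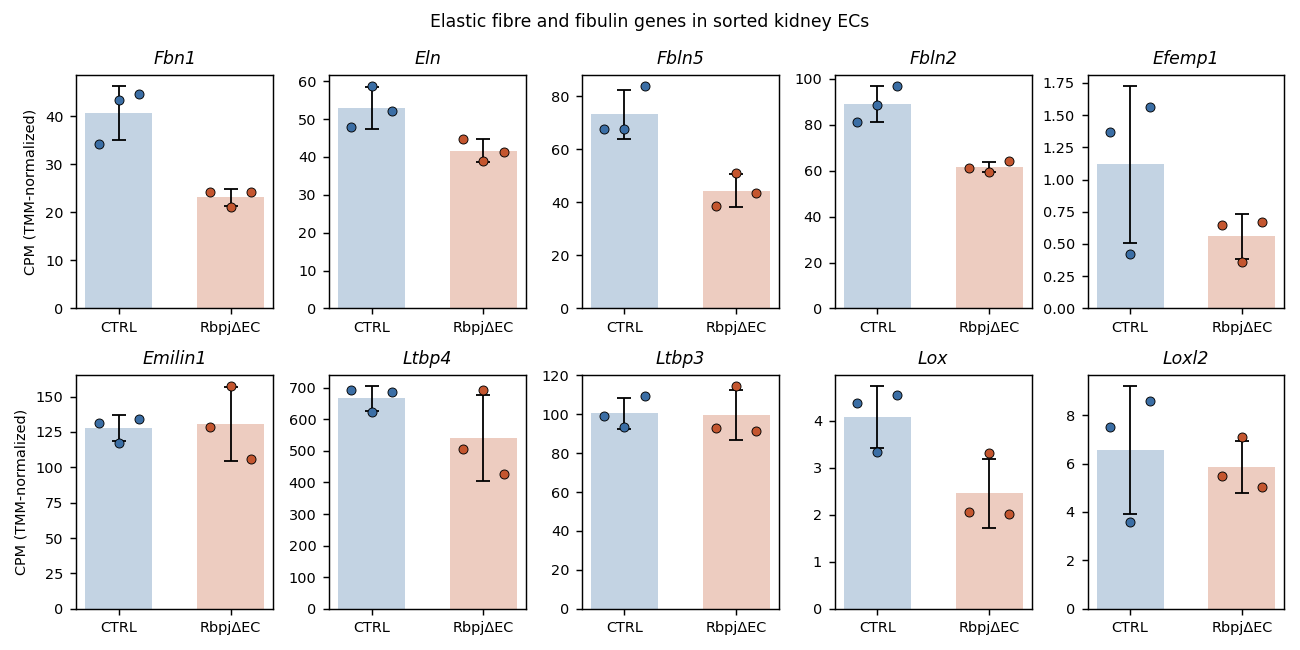
Level of each of the 10 genes in CPM, 1 panel per gene, with 1 point per library in CTRL and RbpjΔEC and the group mean with its SD. The groups are apart in the panels of Fbn1, Fbln5, Fbln2, Eln and Lox and overlap in the other 5, and each vertical axis starts at 0.

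Fbln5 encodes fibulin-5, which binds tropoelastin and cell-surface integrins and is needed for normal elastic fibres (ENSMUSG00000021186.9, chromosome 12, 101746565 to 101819055, minus strand). Its values were 67.7, 67.8 and 84.0 CPM in CTRL and 38.6, 51.1 and 43.7 CPM in RbpjΔEC. The highest RbpjΔEC library stayed under the lowest CTRL library. Group means of 73.2 ± 9.37 and 44.4 ± 6.27 CPM gave a log2 fold change of -0.72 with a standard error of 0.117 (adjusted p = 0.0227). The call was lost without CTRL 1 (adjusted p = 0.0536), CTRL 3 (0.0857) or RbpjΔEC 1 (0.0900).

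Fbln2 encodes fibulin-2, a larger fibulin found in basement membranes and the subendothelial matrix of arteries (ENSMUSG00000064080.12, chromosome 6, 91212455 to 91272540, plus strand). CTRL libraries had 81.3, 88.5 and 97.0 CPM and RbpjΔEC libraries 61.2, 59.6 and 64.0 CPM. Among the 10 genes Fbln2 had the smallest coefficient of variation in RbpjΔEC, 3.64%. With means of 89.0 ± 7.85 and 61.6 ± 2.25 CPM the log2 fold change was -0.53 with a standard error of 0.0792 (adjusted p = 0.0138). It did not pass without CTRL 3 (adjusted p = 0.0731), RbpjΔEC 1 (0.0808) or RbpjΔEC 2 (0.0650).

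Efemp1 encodes fibulin-3, a short fibulin (ENSMUSG00000020467.15, chromosome 11, 28853204 to 28926743, plus strand). It had the lowest level of the 10 genes, with 55, 20 and 66 counts in CTRL and 29, 15 and 27 in RbpjΔEC, and the largest coefficient of variation in CTRL, 54.6%. In CPM these were 1.37, 0.422 and 1.56 against 0.646, 0.357 and 0.673. CTRL 2 fell within the RbpjΔEC range. The log2 fold change was -0.99 with a 95% interval from -2.07 to 0.09 (adjusted p = 0.328), so neither no difference nor a large one was outside the interval.

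**Figure D2:**
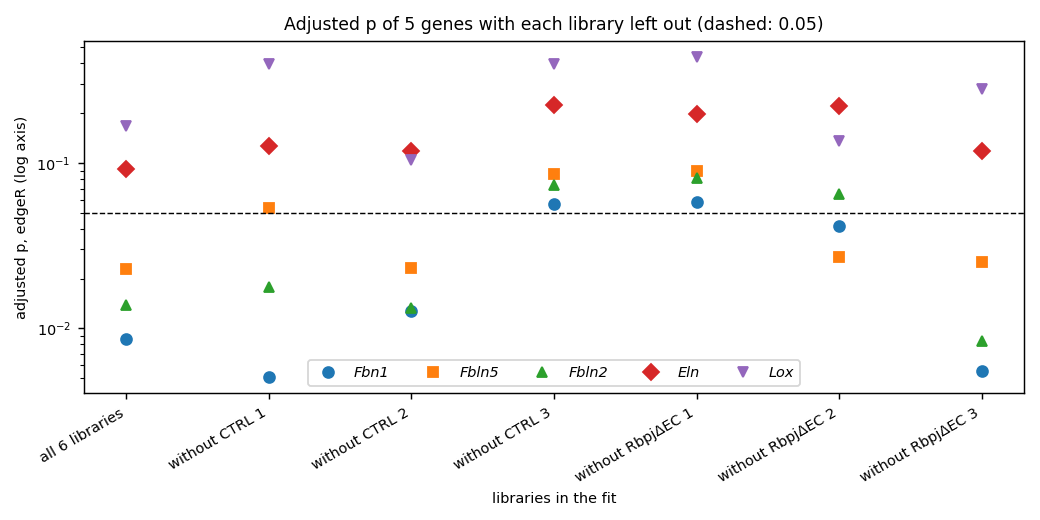
Adjusted p of Fbn1, Fbln5, Fbln2, Eln and Lox (log axis) from edgeR's quasi-likelihood test with all 6 libraries and with each library left out in turn, with a dashed line at 0.05. Fbn1 stays under the line in 4 of the 6 fits with a library left out, Fbln5 and Fbln2 in 3 each, and Eln and Lox in 0.

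Emilin1 encodes a glycoprotein found where elastin meets the microfibrils (ENSMUSG00000029163.9, chromosome 5, 30913402 to 30921277, plus strand). Its levels were 132, 117 and 134 CPM in CTRL and 129, 157 and 106 CPM in RbpjΔEC, so both the highest and the lowest library were RbpjΔEC libraries. The log2 fold change was 0.03, with a 95% interval from -0.26 to 0.33 (adjusted p = 0.923), and its sign turned without CTRL 2 (-0.03) and without RbpjΔEC 2 (-0.12).

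Ltbp4 and Ltbp3 encode LTBPs, which bind the latent form of TGF-beta and attach it to microfibrils, and LTBP4 also takes part in elastic fibre assembly with fibulin-5. Ltbp4 (ENSMUSG00000040488.18, chromosome 7, 27305136 to 27337692, minus strand) had 691, 622 and 686 CPM in CTRL and 507, 692 and 427 CPM in RbpjΔEC. RbpjΔEC 2 was at the level of CTRL 1 while RbpjΔEC 1 and 3 were below all CTRL libraries, and the coefficient of variation was 5.85% in CTRL and 25.1% in RbpjΔEC. The log2 fold change was -0.30 (95% interval -0.68 to 0.09, adjusted p = 0.398). It was -0.51 without RbpjΔEC 2 (adjusted p = 0.0688) and -0.15 without RbpjΔEC 3 (adjusted p = 0.564). Ltbp3 (ENSMUSG00000024940.11, chromosome 19, 5740904 to 5758532, plus strand) had 99.0, 93.2 and 109 CPM in CTRL and 93.0, 115 and 91.3 CPM in RbpjΔEC, with RbpjΔEC 2 again the highest of its group. Its log2 fold change was -0.01, with a 95% interval from -0.22 to 0.20 (adjusted p = 0.961). That sign turned under 4 alternatives, to between 0.03 and 0.05.

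Lox and Loxl2 encode copper-dependent amine oxidases that start the cross-links of elastin and collagen. Lox (ENSMUSG00000024529.14, chromosome 18, 52516067 to 52529867, minus strand) had 4.38, 3.34 and 4.54 CPM in CTRL and 2.05, 3.31 and 2.02 CPM in RbpjΔEC, from 81 to 192 counts per library. CTRL 2 and RbpjΔEC 2 were almost equal, so that the groups were apart by a narrow margin. This gave a log2 fold change of -0.73 (95% interval -1.29 to -0.18, adjusted p = 0.167, and 0.241 by DESeq2). Loxl2 (ENSMUSG00000034205.16, chromosome 14, 69609068 to 69695834, plus strand) had 7.52, 3.57 and 8.59 CPM in CTRL against 5.48, 7.08 and 5.01 CPM in RbpjΔEC, and CTRL 2 was the lowest of all 6 libraries. Its log2 fold change was -0.16 (95% interval -0.83 to 0.51, adjusted p = 0.818) and turned to 0.08 without CTRL 3.

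Within RbpjΔEC the members did not vary together. RbpjΔEC 2 had the highest value of its group for Ltbp4, Emilin1, Ltbp3, Lox, Loxl2 and Fbln5 and the lowest for Fbn1, Eln, Fbln2 and Efemp1. On the log2 scale, the median deviation of the 10 genes from their CTRL means came to -0.46, -0.36 and -0.49 in the RbpjΔEC libraries (1 to 3), against 0.01, -0.10 and 0.13 in the CTRL libraries. All 3 RbpjΔEC libraries were therefore below the CTRL libraries in this median.

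Between genes, levels were compared as CPM per kilobase of exonic length. In CTRL the order from high to low was Ltbp4 (103.1), Emilin1 (25.9), Fbln2 (14.0), Ltbp3 (11.1), Fbln5 (10.6), Eln (6.54), Fbn1 (3.36), Loxl2 (1.21), Lox (0.855) and Efemp1 (0.549 CPM per kilobase). Ltbp4 was far above every other member in all libraries. Ltbp3 and Fbln5 overlapped between CTRL libraries and changed order in CTRL 3, as Loxl2 and Lox did in CTRL 2, so the order within these pairs was not resolved. The ranges of Lox and Efemp1 in CTRL also overlapped, but Lox was above Efemp1 within each of the 6 libraries. In RbpjΔEC Ltbp3 (10.98) stood above Fbln2 (9.67 CPM per kilobase), the reverse of CTRL, but the lowest library of Ltbp3 and the highest of Fbln2 were almost equal.

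Profiles over the 6 libraries were compared by the root mean square distance between log2 CPM values centred on each gene's mean, among 10439 genes with a mean of at least 5 CPM. Nearest to Ltbp4 were Ormdl2 (distance 0.0485), Tnfsf12 (0.0551) and Vangl2 (0.0710). Nearest to Emilin1 were Jam3 (0.0448), Rps13 (0.0481) and Prkcq (0.0504). Nearest to Fbln2 were Pcsk5 (0.0454), Rfk (0.0562) and Ntn4 (0.0664). With 6 libraries and this many candidates, near profiles are a description only.

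Of 21 other genes of elastic fibres, 13 passed the filter, and 0 were called lower or higher by edgeR. At an unadjusted p under 0.05, 4 were lower (Mmrn1, Mmrn2, Ltbp1 and Thsd4) and 1 was higher (Adamts10), and DESeq2 called 1, Ltbp1 (adjusted p = 0.0466). Their median log2 fold change was -0.21. Mmrn2, an EMILIN-family protein of the endothelial surface, had the highest level of this list, 1073 ± 78.7 CPM in CTRL and 926 ± 91.0 CPM in RbpjΔEC (log2 fold change -0.21, adjusted p = 0.241). Ltbp1, which carries latent TGF-beta like the LTBPs above, had 884 ± 96.6 and 705 ± 62.7 CPM without overlap (log2 fold change -0.33, standard error 0.0953, adjusted p = 0.113). Adamts10, a secreted protease family member that associates with fibrillin-1, had 84.5 ± 14.1 and 106 ± 11.8 CPM (log2 fold change 0.32, adjusted p = 0.209).

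**Figure D3:**
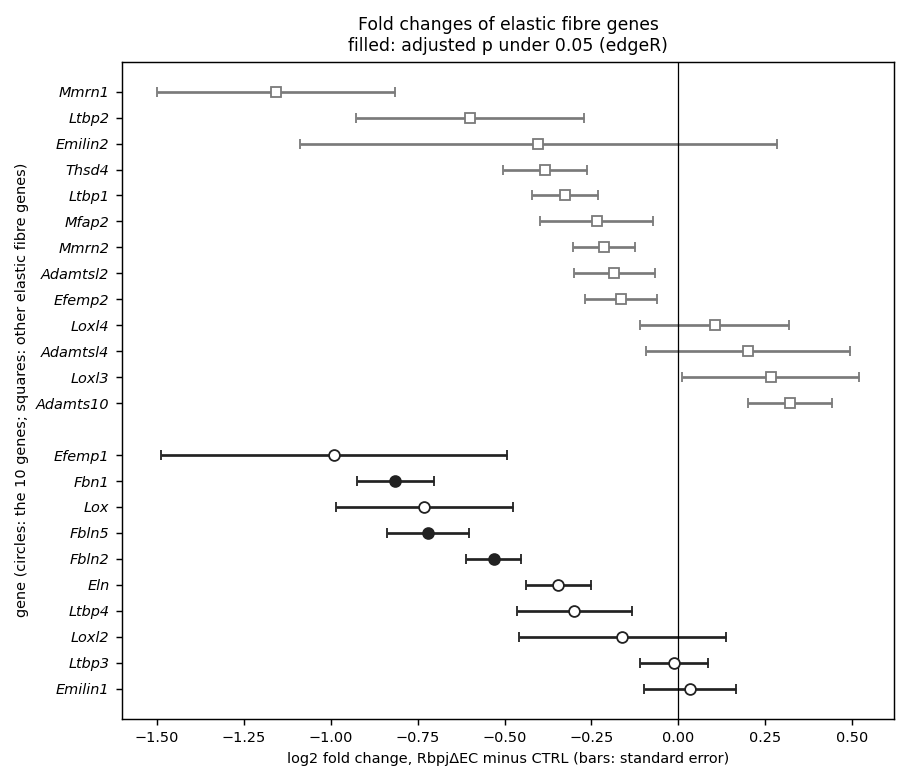
Log2 fold change, RbpjΔEC minus CTRL, with its standard error for the 10 genes (circles) and the 13 tested genes among the 21 other elastic fibre genes (squares), filled where edgeR's adjusted p was under 0.05. Fbn1, Fbln5 and Fbln2 are filled, with log2 fold changes from -0.81 to -0.53, and no square is filled.

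LTBPs carry the TGF-beta ligands, and 1 of the 3 ligand genes fell. Tgfb2 had 75.6, 76.8 and 78.8 CPM in CTRL and 39.5, 34.8 and 41.6 CPM in RbpjΔEC. No library of either group came near the other group. The log2 fold change was -0.998 with a standard error of 0.0815 (adjusted p = 0.000457), and Tgfb2 passed in all 6 fits with a library left out. Tgfb1 had 219 ± 23.0 and 227 ± 28.0 CPM (log2 fold change 0.05, adjusted p = 0.820), and Tgfb3 4.05 ± 0.831 and 3.93 ± 0.413 CPM (log2 fold change -0.04, adjusted p = 0.939). Of 8 genes of proteases that can cleave elastin or its partners, 5 were tested and 0 passed edgeR's test in either direction. Mmp2 and Ctsl were lower at an unadjusted p under 0.05, and DESeq2 called Mmp2 alone. Mmp2, a gelatinase, had 7.06 ± 1.28 and 3.44 ± 1.04 CPM (log2 fold change -1.04, adjusted p = 0.0660). The cathepsin gene Ctsl had 210 and 183 CPM and the membrane protease gene Mmp14 23.1 and 19.1 CPM, with adjusted p of 0.243 and 0.315.

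Elastic fibre genes are also expressed by cells that lie next to ECs, and in bulk RNA fewer cells of a type and less RNA per cell cannot be told apart. Markers of mural cells (smooth muscle cells and pericytes) moved with the result. Of 12 mural genes 11 were tested, and 3 fell: Acta2 (10.2 to 4.16 CPM, log2 fold change -1.30, adjusted p = 0.0369), Myh11 (29.6 to 14.0 CPM, -1.08, 0.0468) and Rgs5 (18.6 to 10.1 CPM, -0.88, 0.0468). Pdgfrb, a pericyte receptor and among the 3 highest genes of the list, had 10.7 and 4.13 CPM (adjusted p = 0.110 by edgeR and 0.000221 by DESeq2). DESeq2 called 7 mural genes lower, and 10 of the 11 were lower at an unadjusted p under 0.05. The list had 10 genes lower without overlap, a median log2 fold change of -1.15, and a sum of 117, 94.5 and 89.7 CPM in CTRL against 46.8, 37.1 and 59.2 CPM in RbpjΔEC. Rgs5 passed in 2 of the 6 fits with a library left out, and Acta2 and Myh11 in 3 each. Of 11 fibroblast genes 5 were tested, and Pi16 (149 ± 16.4 to 81.3 ± 12.5 CPM, log2 fold change -0.88, adjusted p = 0.0138, passing in 4 of 6 such fits) and Pdgfra (3.46 to 1.09 CPM, -1.67, 0.0468, in 2 of 6) fell. Col6a3, the next highest, had 3.204 and 0.969 CPM (adjusted p = 0.132). The collagen gene Col1a2 had 2.17, 1.22 and 2.06 CPM in CTRL and 0.468, 0.262 and 0.798 CPM in RbpjΔEC (log2 fold change -1.83, adjusted p = 0.0622 by edgeR and 0.0131 by DESeq2), and Col3a1 had 0.672, 0.464 and 0.497 against 0.0669, 0.357 and 0.349 CPM (adjusted p = 0.377). All 5 tested fibroblast genes were lower without overlap, 4 at an unadjusted p under 0.05, and DESeq2 called 4. Of the 6 fibroblast genes under the filter, Scara5 had 23, 10 and 13 counts in CTRL and 0, 0 and 2 in RbpjΔEC, and Clec3b had at most 2 counts in any library. Dcn, Col1a1 and Lum were at most 0.213, 0.224 and 0.0498 CPM in any library and Dpt was at 0 in all. The sum of the fibroblast list was 144 to 172 CPM in CTRL and 70.3 to 97.8 CPM in RbpjΔEC, and most of it was Pi16. Without Pi16 the fibroblast sum was 7.45 to 12.7 CPM in CTRL and 2.07 to 4.66 CPM in RbpjΔEC.

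**Figure D4:**
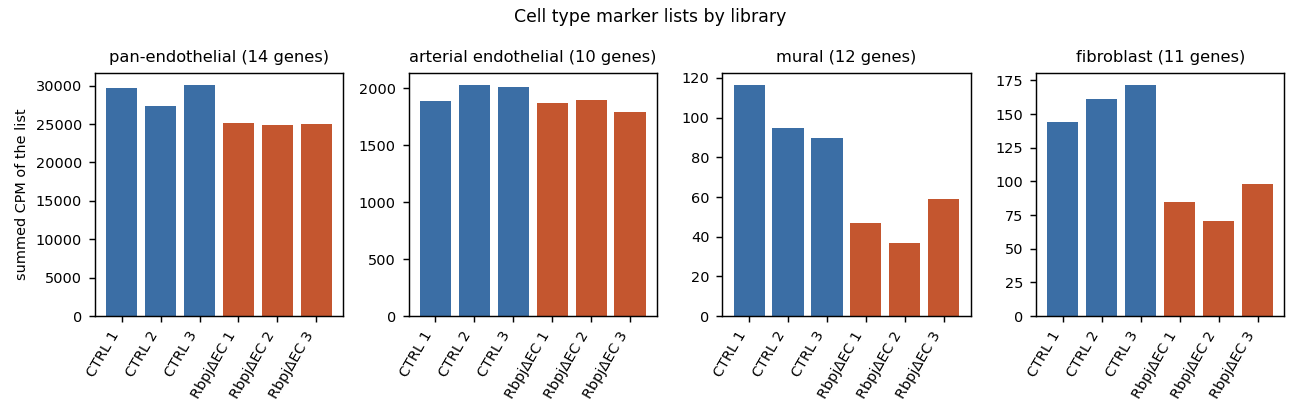
Summed CPM of cell type marker lists in each of the 6 libraries, 1 panel per list. The mural sum is 89.7 to 117 CPM in CTRL and 37.1 to 59.2 CPM in RbpjΔEC, without overlap. The fibroblast sum is mostly Pi16.

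To set the members beside these markers, each was divided by the marker sum of its own library, a ratio chosen after the values were seen. Relative to the pan-endothelial sum, Fbln2, Fbln5 and Fbn1 were lower in RbpjΔEC without overlap, while Eln and Lox overlapped and Ltbp3 was higher without overlap. Fbn1 was 0.115, 0.159 and 0.148% of that sum in CTRL and 0.0963, 0.0847 and 0.0966% in RbpjΔEC. Relative to the mural sum, Fbn1 was 29.4, 45.9 and 49.7% in CTRL and 51.7, 57.0 and 40.9% in RbpjΔEC, and the groups overlapped. Fbln5 overlapped on that scale too, and Eln, Ltbp3 and Emilin1 were higher in RbpjΔEC without overlap. For Fbln2 on that scale the highest CTRL and the lowest RbpjΔEC library were almost equal (both 108%). Both marker sums were themselves lower in RbpjΔEC without overlap. Dividing by them therefore raised the members in RbpjΔEC relative to CTRL, also Ltbp3 and Emilin1, whose CPM hardly differed between the groups. For this reason the ratios cannot tell where the fall of a member came from. The part of mural cells in the results on Fbn1, Fbln5 and Fbln2 was not tested.

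Among 10 arterial endothelial markers Jag1, a Notch ligand, fell (131 ± 13.6 to 90.2 ± 10.8 CPM, log2 fold change -0.54, adjusted p = 0.0368, passing in 3 of 6 fits with a library left out). Gja5, which encodes an arterial connexin, had 51.3 ± 14.4 and 20.3 ± 5.70 CPM (log2 fold change -1.34, adjusted p = 0.110). DESeq2 called 4 arterial genes lower, Jag1, Gja5, Gja4 and Hey1. The 3 highest arterial genes, Efnb2, Dll4 and Sox17, had 920, 471 and 185 CPM in CTRL and 826, 549 and 190 CPM in RbpjΔEC, with adjusted p of 0.275, 0.162 and 0.936. At an unadjusted p under 0.05, 5 arterial genes were lower and 1 higher, and the summed level was 1889 to 2028 CPM in CTRL and 1790 to 1896 CPM in RbpjΔEC. Tubule (297 to 442 against 122 to 436 CPM), leukocyte (3.53 to 11.9 against 2.12 to 4.64) and lymphatic endothelial sums (618 to 709 against 644 to 680) overlapped between the groups. Within the tubule list RbpjΔEC 3 stood apart in proximal tubule genes, with 129 CPM of Lrp2 against 29.15 and 28.97 in RbpjΔEC 1 and 2 and 73.5 CPM of Slc34a1 against 17.1 and 19.5. Umod, Slc12a1 and Aqp2, genes of more distal segments, were lower in RbpjΔEC without overlap (log2 fold changes -1.19, -1.25 and -2.77, adjusted p of 0.279, 0.357 and 0.159). Slc12a3, also a distal gene, and Cdh16 overlapped between the groups (log2 fold changes -1.79 and -1.10, adjusted p of 0.388 and 0.384). The median of the 8 tubule genes was -1.15. Of these 3 lists edgeR called 0 genes, with 2 tubule, 2 leukocyte and 2 lymphatic genes lower at an unadjusted p under 0.05, and DESeq2 called 1 leukocyte and 1 lymphatic gene lower. The highest genes of these lists were Slc12a3, Slc12a1 and Umod for tubule, Ptprc, Csf1r and Lyz2 for leukocytes, and Flt4, Reln and Prox1 for lymphatic ECs. Nearly all of the lymphatic sum was Flt4, with 633 CPM in CTRL and 639 CPM in RbpjΔEC. In the same order Reln had 15.1 and 9.18 CPM, overlapping (adjusted p = 0.0330 by DESeq2). Prox1, with 8.99 and 10.1 CPM, was higher without overlap, and Lyve1, with 1.24 and 0.547 CPM, was lower without overlap. The part of arterial ECs and of tubule RNA in the results on the 10 genes was not tested.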

How the data were processed

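The authors aligned reads from stranded total RNA libraries to GRCm38.p6 (GENCODE M25) with nf-core/rnaseq (Trim Galore 0.6.4, STAR 2.6.1d, featureCounts of Subread 1.6.4) and deposited whole-number counts per gene, without normalization. The strand setting of the counting is not given in the sources used here. Groups came from the sample labels, with 1 library per mouse.

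The deposited counts were scaled with TMM factors and tested in R 4.3.3 with edgeR 4.0.16 (filterByExpr, estimateDisp, robust glmQLFit, glmQLFTest) and Benjamini-Hochberg adjustment over 18438 genes. Standard errors follow from each fold change and its F statistic. Log2 CPM used a prior count of 2. Coordinates and exonic lengths came from GENCODE M21 on GRCm38, and promoter windows from RefSeq. The code was tested on simulated data.

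All 10 genes are named. Of the other lists, genes past the threshold and the 3 with the highest mean CPM are named. Gja5, Gja4, Hey1, Mmrn1, Thsd4, Lrp2, Slc34a1, Aqp2, Cdh16, Lyve1, the other fibroblast markers and low-count genes were named after their values were seen. For the 3 members highest per exonic length, the 3 genes nearest in profile are named. The result for 1 marker list is not reported here. The members and lists were chosen with earlier results of these data known.

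Alternatives were DESeq2 size factors in edgeR, library totals alone, no filter on low counts, at least 1 CPM in 3 libraries, DESeq2 1.42.0 with its Wald test, the replicate number as a block, and each library left out. Depth gave a floor of 3 counts per library. No pair of libraries held identical counts. P-values measure the spread between 3 mice per group.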

Additional observations from a re-analysis of the deposited data

How the results depend on the processing

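The numbers of the 10 genes called lower (3) and higher (0) were the same with other size factors, library totals alone, at least 1 CPM in 3 libraries, DESeq2 and the replicate block. Without the low-count filter 4 were lower. Leaving out 1 library gave 0 to 3 lower, with 0 without CTRL 3 or without RbpjΔEC 1 and 2 without CTRL 1 or RbpjΔEC 2, and 0 higher throughout. Of the other elastic fibre genes, 3 were lower and 1 higher without the filter, 1 was lower by DESeq2, 1 (Mmrn1) was lower under the replicate block, and 0 to 2 were lower and 0 to 1 higher with a library left out (Mmrn1, Ltbp1 and Adamts10 without CTRL 2, Fbln7 without RbpjΔEC 3). Over all genes 719 were lower and 717 higher without the filter, 322 and 262 by DESeq2, 178 and 166 under the replicate block, and 13 to 333 lower and 7 to 401 higher with a library left out. The cause was not tested.

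The log2 fold change of Ltbp3 (-0.01) turned to 0.030 with library totals alone and lay between -0.12 and 0.049 with a library left out (0.049 without CTRL 3, 0.046 without RbpjΔEC 3, 0.034 without RbpjΔEC 1). Emilin1 (0.03) lay between -0.12 and 0.16, negative without CTRL 2 (-0.031) and RbpjΔEC 2 (-0.12), and Loxl2 (-0.16) between -0.47 and 0.080, positive without CTRL 3. No alternative turned Fbn1, Fbln5, Fbln2, Eln, Lox, Ltbp4 or Efemp1, and Efemp1 had no value with at least 1 CPM in 3 libraries. The median over all genes was 0.01, 0.05 with library totals alone and -0.10 over the 38324 genes fitted by DESeq2, while the members' median lay between -0.51 and -0.34.

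Same-numbered libraries shared only a number: the correlations of their deviations from the group means were 0.02, 0.01 and 0.01, and 0 of 3 correlated best with its own number. Depth set a floor of 3 counts per library, which all 10 genes exceeded in every library.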

Other observations

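Of the 21 other elastic fibre genes, 8 had too few counts to be tested (Fbln1, Fbln7, Fbn2, Emilin3, Mfap4, Mfap5, Loxl1 and Adamts17). Fbln7, a fibulin, had 15, 9 and 15 counts in CTRL and 0, 0 and 3 in RbpjΔEC, without overlap. Fbn2, the fibrillin prominent in development, had 19, 1 and 1 counts in CTRL and 0 in each RbpjΔEC library, so that its CTRL level came almost wholly from CTRL 1, the library with counts on the most genes. Loxl1, a lysyl oxidase of elastic fibres, had between 0 and 5 counts in every library, at or near the floor of 3 counts.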
